A study of Mus musculus with 43 samples.

Results

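The genes described here are 5 imprinted genes, Ndn, Magel2, Nnat, Dlk1 and Nap1l5, among the 10127 genes of the expression table. They were taken by name, through the Ensembl identifiers of the table, and all 5 were measured in all 41 libraries. In male adult mice that lacked the Snord116 cluster on the paternal chromosome (B6(Cg)-Snord116tm1.1Uta/J, strain labelled C57/BL6), RNA was measured either with free access to food (fed) or after 24 hours without it (fasted). Laser-captured arcuate nucleus (ARC), dorsomedial hypothalamus (DMH), paraventricular nucleus (PVN) and ventromedial hypothalamus (VMH) of 6 fasted and 6 fed mice were sequenced after RNA amplification. ARC gave 4 fasted and 5 fed libraries, DMH 5 and 6, PVN 5 and 5, VMH 6 and 5. Every mouse had the deletion, wild-type mice were not analysed here, and no comparison addresses the deletion itself. Each of the 3 batches held 4 mice, 2 fasted and 2 fed, and a mouse is called here after its VMH library (VMH-305 for the mouse of that number). All values are CPM, counts of a gene per 1000000 reads of the library, and differences are on the scale of log2(CPM + 0.5).

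Imprinted genes are transcribed mainly from the copy inherited from a single parent. All 5 genes here are known as paternally expressed in mice. Ndn and Magel2 lie in the Prader-Willi region with Snord116, whereas Nnat, Dlk1 and Nap1l5 belong to imprinted loci on other chromosomes. Loss of the paternal Prader-Willi region causes a neurodevelopmental disorder with hypothalamic features. The reads were not assigned to parental alleles, so the values are total RNA of each gene.

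Ndn (ENSMUSG00000033585) encodes necdin, a member of the MAGE (melanoma antigen) family expressed in postmitotic neurons. It was annotated as 1 exonic block on chromosome 7 of GRCm38, plus strand, at 62346569 to 62350262. Magel2 (ENSMUSG00000056972), another MAGE gene, whose protein works with a ubiquitin ligase in endosomal protein recycling, was also annotated as 1 exonic block. It lay at 62377010 to 62381640 on the same strand, 26.7 kb beyond the end of Ndn. Nnat (ENSMUSG00000067786) encodes neuronatin, a small membrane protein of the endoplasmic reticulum, and lay on chromosome 2, plus strand, at 157560078 to 157562522. The whole of Nnat was inside Blcap, which is read from the other strand and shared 0 exonic bases with it. The small gene Gm23134, also on the other strand, shared 87 exonic bases with Nnat. Dlk1 (ENSMUSG00000040856) encodes a membrane protein with EGF-like repeats related to the Notch ligands, and lay on chromosome 12, plus strand, at 109452823 to 109463336. Nap1l5 (ENSMUSG00000055430), of the nucleosome assembly protein family, was annotated with 1 exonic block on chromosome 6, minus strand, at 58905233 to 58907076, inside Herc3 with 0 shared exonic bases. Whether reads were assigned by strand is not given in the sources used here, so reads of such overlapping pairs cannot be told apart where they share exonic bases.

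The 250 bases before the RefSeq start (GRCm38.p6) of 3 members are printed because Ndn and Magel2 are neighbours that differed in level and in pattern, and because Ndn and Nnat share a motif. Capitals mark matches to the motifs searched on both strands, GCATGCGC (the core associated with the factor Nrf1), GGGCGG (the GC box) and TATAAA, with overlapping matches joined. The motifs were chosen with these windows in view.
Ndn, chr7:62348027-62348276, plus strand: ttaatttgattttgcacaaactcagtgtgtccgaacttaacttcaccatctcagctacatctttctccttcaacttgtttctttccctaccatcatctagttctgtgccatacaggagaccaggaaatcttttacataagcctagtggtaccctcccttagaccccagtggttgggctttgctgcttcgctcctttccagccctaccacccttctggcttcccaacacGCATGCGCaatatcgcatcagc
Magel2, chr7:62376729-62376978, plus strand: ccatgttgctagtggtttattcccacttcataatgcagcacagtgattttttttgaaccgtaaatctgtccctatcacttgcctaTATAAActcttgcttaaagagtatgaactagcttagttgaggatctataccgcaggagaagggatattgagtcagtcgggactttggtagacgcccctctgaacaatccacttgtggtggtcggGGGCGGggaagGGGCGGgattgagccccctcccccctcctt
Nnat, chr2:157559828-157560077, plus strand: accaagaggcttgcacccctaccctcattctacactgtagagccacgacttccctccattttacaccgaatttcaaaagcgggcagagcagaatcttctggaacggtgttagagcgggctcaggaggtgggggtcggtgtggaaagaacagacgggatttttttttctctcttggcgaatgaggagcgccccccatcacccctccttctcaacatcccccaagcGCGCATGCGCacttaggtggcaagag

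The Ndn window held GCATGCGC once, starting 22 bases before the RefSeq start. In Nnat both strands matched it in overlapping positions, which start 26 and 24 bases before the RefSeq start. The same letters were in 2.26% of the 32851 RefSeq windows of this length. Magel2 held GGGCGG 2 times, at 41 and 30 bases before its start, and TATAAA 165 bases before it. Of all windows, 32.7% held GGGCGG and 12.4% held TATAAA. The windows of Nap1l5 also held GGGCGG and TATAAA once each, and that of Dlk1 held none of the motifs. The RefSeq start of Ndn lay 1708 bases inside the GENCODE gene, so its window is within the annotated exonic block, whereas the starts of Magel2 and Nnat differed by 31 and 0 bases between annotations. Over the 41 libraries, log2 levels of Ndn and Nnat had a Pearson r of -0.38 and those of Ndn and Magel2 an r of -0.11, a description of libraries that share mice and batches.

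Nap1l5 and Ndn had the highest read fractions of the members and Magel2 the lowest. Nap1l5 was at 887 ± 273 CPM (SD, n = 41 libraries), Ndn at 737 ± 136, Nnat at 554 ± 304.8, Dlk1 at 503 ± 289 and Magel2 at 70.3 ± 26.6. Per kilobase of exonic length, the scale on which genes can be compared, the mean level was 481 CPM per kb for Nap1l5, 303 for Nnat, 200 for Ndn, 88.8 for Dlk1 and 15.2 for Magel2. The place of Ndn depends on its annotated length, since the 1986 bases from its RefSeq start would give 371 CPM per kb, above Nnat. The read totals behind the CPM, inferred from the steps between low values, were 1.94 to 8.23 M (mega) per library and may be below the reads sequenced. The lowest value of Magel2 thus rested on about 92 reads and that of Ndn on about 1280, which are counts of amplified copies and not of separate molecules.

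The labelled nuclei were checked against marker genes. Npy averaged 473 CPM in ARC and at most 5.55 in the other nuclei, Avp 800 in PVN and at most 3.95, and Fezf1 219 in VMH and at most 8.71. In DMH, Npvf averaged 95.3 CPM and at most 1.13 elsewhere. The 3 measured DMH markers together were less restricted, with a summed mean of 484 CPM in DMH and 31.7 CPM in VMH, where they ranged from 7.73 to 88.1 CPM. Of the neuron markers listed, 6 of 15 were measured, with a summed level of 1069 to 1897 CPM over all libraries. Each library mixes cell types, so fewer cells of a type and less RNA per cell cannot be told apart.

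The first comparison asked whether the members differ between nuclei, with each nucleus set against the mean of the others within mice. All 5 members differed between nuclei (limma F-test), where 43.3% of 10121 tested genes were called at an adjusted p under 0.1. All 5 were lower in VMH than in the other nuclei, where 16.2% of genes were called lower. In ARC, 3 members were called higher and 0 lower, with 9.75% and 11.6% of genes. PVN had 3 members higher and 1 lower, against 10.8% and 12.3% of genes. In DMH 2 members were higher and 0 lower, with 8.24% and 6.56% of genes. These contrasts depend on each other, since VMH is part of the mean that ARC, PVN and DMH were set against. Neither of the 2 members was called higher in DMH than in ARC alone or in PVN alone. Between single pairs of nuclei, 18.0% of genes were called for ARC and DMH, 17.3% for ARC and PVN, 18.3% for DMH and PVN, 22.5% for DMH and VMH, 30.2% for ARC and VMH and 32.0% for PVN and VMH. The median difference of the members in VMH was -0.59, beside -0.02 over all genes, and these counts describe a chosen list of 5 genes.

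**Figure D1:**
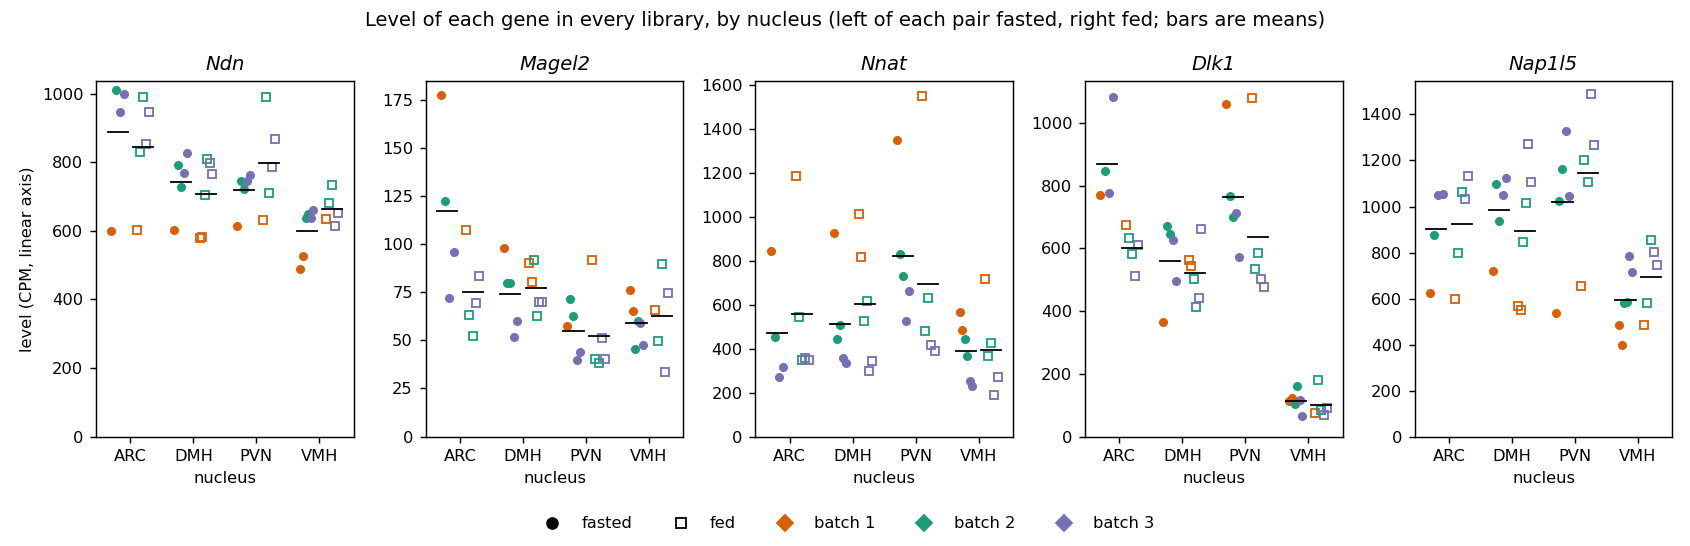
CPM of Ndn, Magel2, Nnat, Dlk1 and Nap1l5 (linear axis from 0) in every library by nucleus, with fasted libraries as filled circles on the left of each pair, fed libraries as open squares on the right, batches by color and group means as bars. Dlk1 in VMH, at 64.4 to 181 CPM, lies below every library of the other nuclei, whose lowest value is 367 CPM.

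Dlk1 had the widest range between nuclei. It stood at 512 to 1083 CPM in ARC (median 675, n = 9 libraries). In PVN it ranged from 476 to 1081 CPM (median 642, n = 10). In DMH it ranged from 367 to 671 CPM (median 544, n = 11). The VMH libraries were at 64.4 to 181 CPM (median 104, n = 11), and none reached the lowest library of another nucleus. Such a lack of overlap between VMH and the others was seen in 1.01% of genes. Dlk1 was 6.24-fold lower in VMH (log2 difference -2.64 ± 0.12 SE, limma adjusted p 3.1e-22), and of 1334 genes with a mean of at least 100 CPM, 4 others were lower there by as much or more. It was higher than the mean of the others in ARC (1.13 ± 0.12), PVN (0.99 ± 0.12) and DMH (0.52 ± 0.12). Each of these means includes the low VMH. Set against each other, ARC was higher than DMH (0.46 ± 0.15, limma adjusted p 0.0277). All 9 mice that gave every nucleus had their lowest Dlk1 in VMH, and 5 had their highest in ARC. The order of levels was ARC, PVN, DMH and VMH, and the neighbours ARC and PVN did not differ beyond their spread (0.11 ± 0.15, adjusted p 0.733). The difference of DMH from PVN (-0.35 ± 0.14, adjusted p 0.0916) was no longer called without any of the mice VMH-86, VMH-100, VMH-111, VMH-127, VMH-305 or VMH-308, left out singly, with adjusted p values of 0.116 to 0.318, nor at a pseudocount of 0.1 (0.102) or without batch 1 (0.599).

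Of the 5 members, Ndn varied least between nuclei. It was at 599 to 1011 CPM in ARC (median 948) and 615 to 990 CPM in PVN (median 746). In DMH it was at 580 to 827 CPM (median 766), and in VMH at 489 to 733 CPM (median 636). The ranges of all nuclei overlapped. Ndn was higher in ARC (0.26 ± 0.05, adjusted p 0.000221) and lower in VMH (-0.28 ± 0.05, adjusted p 2.94e-05), with values of -0.02 ± 0.05 in DMH and 0.03 ± 0.05 in PVN that did not pass. VMH was lowest in 7 of 9 mice. The order was ARC, PVN, DMH and VMH by mean, and PVN and DMH were not separated (adjusted p 0.784). The difference between ARC and PVN (0.18 ± 0.06, adjusted p 0.0622) was lost when mouse VMH-100, VMH-127, VMH-305 or VMH-311 was left out, with adjusted p values of 0.174 to 0.213.

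Magel2, 26.7 kb from Ndn, was also highest in ARC but was lowest in PVN. Its libraries were at 52.2 to 178 CPM in ARC (median 83.4) and 52.0 to 98.2 CPM in DMH (median 79.8). In PVN they were at 38.3 to 91.8 CPM (median 47.6) and in VMH at 33.5 to 89.5 CPM (median 60.3). The ranges overlapped between all nuclei. Magel2 was 1.48-fold higher in ARC (0.57 ± 0.13, adjusted p 0.00146) and 1.39-fold lower in PVN (-0.48 ± 0.13, adjusted p 0.00493), and ARC exceeded PVN in 9 of 9 mice. The lower level in VMH (-0.28 ± 0.13, adjusted p 0.0993) lost its call at a pseudocount of 0.1 (adjusted p 0.103), without batch 1 (0.282), and without any of mice VMH-86, VMH-100, VMH-101, VMH-111, VMH-125, VMH-308 or VMH-311 (0.119 to 0.299). Neighbours in the order ARC, DMH, VMH and PVN were not called, with adjusted p values of 0.278, 0.111 and 0.535. The second of these differences (DMH minus VMH, 0.36 ± 0.15) passed with no mouse block (0.0727) and without mouse VMH-127 (0.029), VMH-305 (0.0865) or VMH-313 (0.0915).

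By mean level and within mice, Nnat was highest in PVN and lowest in VMH, although its median was lowest in ARC. It was at 390 to 1548 CPM in PVN (median 646) and 300 to 1013 CPM in DMH (median 505). In ARC it was at 272 to 1185 CPM (median 356) and in VMH at 187 to 717 CPM (median 366). These ranges overlapped, with batch 1 and also without it, where they were 390 to 829, 300 to 615, 272 to 545 and 187 to 444 CPM. Within mice, Nnat was 1.60-fold higher in PVN (0.68 ± 0.08, adjusted p 2.63e-08) and 1.53-fold lower in VMH (-0.62 ± 0.08, adjusted p 1.22e-07). PVN was highest and VMH lowest in 8 of 9 mice each. DMH and ARC, the middle of the order, were not separated (ARC minus DMH -0.06 ± 0.11, adjusted p 0.781).

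Nap1l5 had the same highest and lowest nuclei as Nnat. It was at 538 to 1491 CPM in PVN (median 1134) and 552 to 1274 CPM in DMH (median 1016). It was at 600 to 1131 CPM in ARC (median 1034) and 398 to 854 CPM in VMH (median 585). The ranges overlapped, but all 9 mice with every nucleus had their lowest Nap1l5 in VMH. It was 1.51-fold lower in VMH (-0.59 ± 0.06, adjusted p 1.15e-11) and 1.28-fold higher in PVN (0.35 ± 0.06, adjusted p 3.23e-06). DMH was above the mean of the others, VMH included (0.18 ± 0.06, limma adjusted p 0.0313). This difference was not called without mouse VMH-100 (adjusted p 0.125). PVN, DMH and ARC followed each other without separation between neighbours (adjusted p 0.202 for DMH minus PVN and 0.493 for ARC minus DMH), although the first passed without batch 1 (0.0399) and without mouse VMH-86 (0.032).

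**Figure D2:**
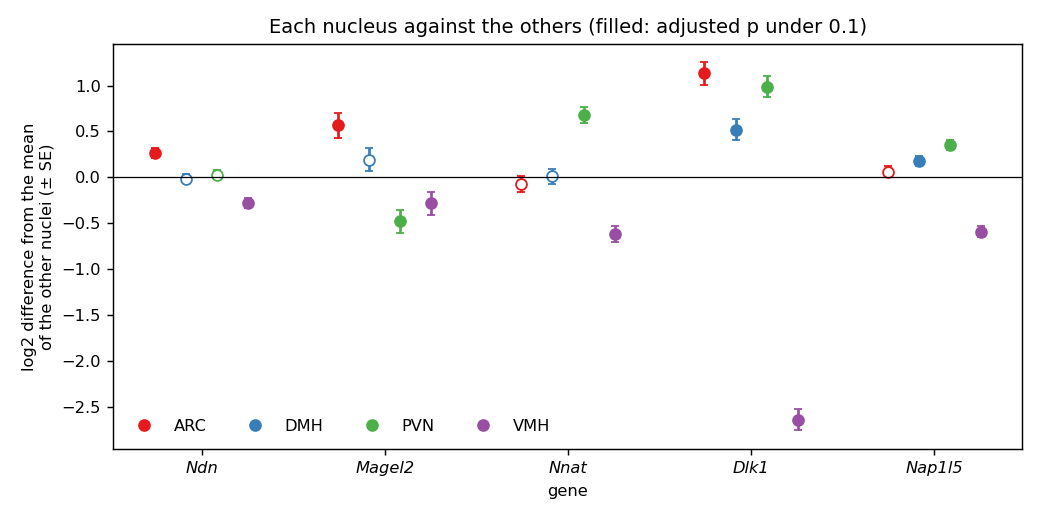
Log2 difference of each nucleus from the mean of the other nuclei (points, with bars of ± 1 SE) for the 5 genes, from the fit with mouse as a block. Filled points passed an adjusted p of 0.1, and VMH is below 0 for all 5, furthest for Dlk1 at -2.64.

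The nucleus differences were recomputed within each batch and each feeding state. VMH was below the mean of the others in all 5 such subsets for each of the 5 members. For Dlk1 these values ran from -2.85 to -2.29, for Nap1l5 from -0.71 to -0.41, for Nnat from -0.92 to -0.41, for Ndn from -0.38 to -0.14 and for Magel2 from -0.48 to -0.13. ARC was above the others in all 5 subsets for Ndn (0.04 to 0.35), Magel2 (0.26 to 0.86) and Dlk1 (0.94 to 1.28). Cell type markers also differed between nuclei. All 7 measured oligodendrocyte markers, of 10 listed, were higher in VMH, with a summed level of 1151 to 1807 CPM there, 261 to 805 in ARC, 363 to 637 in PVN and 464 to 1603 in DMH. The summed neuron markers were at 1515 to 1897 CPM in VMH, 1069 to 1339 in PVN, 1144 to 1318 in ARC and 1280 to 1640 in DMH. This sum is over Syt1, Tubb3, Uchl1, Slc17a6, Slc32a1 and Gad1, whose single directions are not given here. All 7 measured endothelial markers, of 8 listed, were higher in PVN. All 4 measured astrocyte markers, of 9 listed, were lower in ARC, with a summed level of 123 to 183 CPM there and 181 to 413 CPM in the other nuclei. In ARC 2 of 3 measured ependymal and tanycyte markers, of 9 listed, were higher, with a summed level of 24.3 to 71.2 CPM there and at most 26.4 elsewhere. Their part in the nucleus differences of the members was not tested.

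Other imprinted genes did not all follow the members. Of 77 imprinted genes listed, 39 were measured, and of the 34 that are not members 9 were called lower and 5 higher in VMH (all genes 16.2% and 15.9%), with a median difference of -0.16. Asb4, a subunit of a ubiquitin ligase, fell further than Dlk1 in VMH, from 364 ± 93.9 CPM in ARC (n = 9) to 11.8 ± 6.15 in VMH (n = 11), a log2 difference from the others of -4.06 ± 0.15. Peg10, derived from a retrotransposon, was at 1228 ± 188 CPM in ARC (n = 9) and 337 ± 64.1 in VMH (n = 11), a difference of -1.58 ± 0.06. Within the imprinted domain of Dlk1, the paternally expressed Rtl1 was lower in VMH (-0.36 ± 0.12) but the maternally expressed noncoding Rian (0.49 ± 0.05) and Mirg (0.24 ± 0.10) were higher. Begain did not pass there (-0.17 ± 0.13, adjusted p 0.375). Herc3, which surrounds Nap1l5, was lower in VMH (-0.33 ± 0.08), and Blcap, which surrounds Nnat, did not pass (0.21 ± 0.11, adjusted p 0.147).

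The second comparison asked how far the members differed between the 3 batches that the labels name, each of which held both feeding states. In the comparison of batch 1 with batches 2 and 3, 4 of 5 members were called, with 34.3% of all genes called. Nnat and Magel2 were higher and Ndn and Nap1l5 lower in batch 1, against 15.8% of genes higher and 18.5% lower. Levels per mouse are given below after the nucleus differences were removed, since not every mouse gave all nuclei. In batch 1, 1 fasted and 1 fed mouse gave 1 library each.

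Nnat stood in the order of the batches with no overlap. The mice of batch 1 were at 778, 844, 1007 and 1017 CPM. Those of batch 2 were at 474, 489, 507 and 522 CPM. Those of batch 3 were at 302, 335, 338 and 357 CPM. The batches thus formed separate ranges. Nnat was 2.27-fold higher in batch 1 (1.18 ± 0.08, limma adjusted p 6.47e-17), and no other of the 495 ways to choose 4 of the 12 mice gave as large a difference (exact permutation over mice, 2-sided p 0.00202, the smallest it can give). It was also lower in batch 3 than in batch 2 (-0.57 ± 0.08, limma adjusted p 1.5e-06), where 2.78% of genes were called. The limma fit counted libraries of 1 mouse almost as separate, so its p values do not measure the spread between mice alone. All Nnat libraries of batch 1 were above all others of the same nucleus in all 4 nuclei, a lack of overlap seen in 16.9%, 7.18%, 18.7% and 9.50% of genes in ARC, DMH, PVN and VMH. Blcap, whose gene surrounds Nnat, was higher by 0.38 ± 0.11 in batch 1. The small Gm23134, which shares exonic bases with Nnat, was between 9.50 and 49.5 CPM in all libraries. It averaged 30.7, 25.9 and 23.5 CPM in batches 1, 2 and 3, and 38.6 CPM in PVN, 24.6 in DMH, 21.1 in ARC and 20.6 in VMH, the same order as the means of Nnat.

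Nap1l5 was ordered in the reverse direction. The mice of batch 1 were at 519, 557, 569 and 661 CPM. Those of batch 2 were at 828, 869.5, 869.5 and 1005 CPM, and those of batch 3 at 971, 1035, 1043 and 1120 CPM. Batch 1 did not overlap the others, and batches 2 and 3 overlapped by mouse VMH-127. Nap1l5 was 1.69-fold lower in batch 1 (-0.75 ± 0.06, adjusted p 7.29e-15, exact permutation p 0.00202). The difference between batches 3 and 2 (0.22 ± 0.06, adjusted p 0.0211) was lost without mouse VMH-125 (adjusted p 0.129), without mouse VMH-308 (0.156) and in a fit on mouse levels (0.658). Herc3, which surrounds it, did not pass (-0.12 ± 0.08, adjusted p 0.296).

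Ndn was lower and Magel2 higher in batch 1, although the genes are neighbours on the same strand. The Ndn levels of the batch 1 mice were 565, 584, 584 and 612 CPM. The other 8 mice were between 731 and 804 CPM, with no overlap. Ndn was lower in batch 1 by -0.39 ± 0.05 (adjusted p 8.77e-09, exact permutation p 0.00202), and batches 2 and 3 differed by 0.00 ± 0.05. The Magel2 levels of the batch 1 mice were 81.6, 85.1, 88.2 and 90.0 CPM. The other mice were between 53.8 and 75.1 CPM. Magel2 was higher in batch 1 by 0.49 ± 0.12 (adjusted p 0.001, exact permutation p 0.00202). Mouse levels of these 4 genes did not overlap between batch 1 and the other mice, which held for 11.0% of all genes.

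Dlk1 did not pass in the comparison of batch 1 with the others. Mice of batch 1 were at 417 to 453 CPM, inside the range of 299 to 510 CPM of the others. The difference was 0.12 ± 0.11 (adjusted p 0.493, exact permutation p 0.347). For batch 3 minus batch 1, where 35.5% of genes were called, it was -0.22 ± 0.13 (adjusted p 0.202), and it passed in mouse averages (0.0932) and without mouse VMH-86 (0.0913). In PVN alone, both batch 1 libraries (1061 and 1081 CPM) were above the other 8, which were at 476 to 766 CPM, and 18.7% of genes had no overlap between these libraries.

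**Figure D3:**
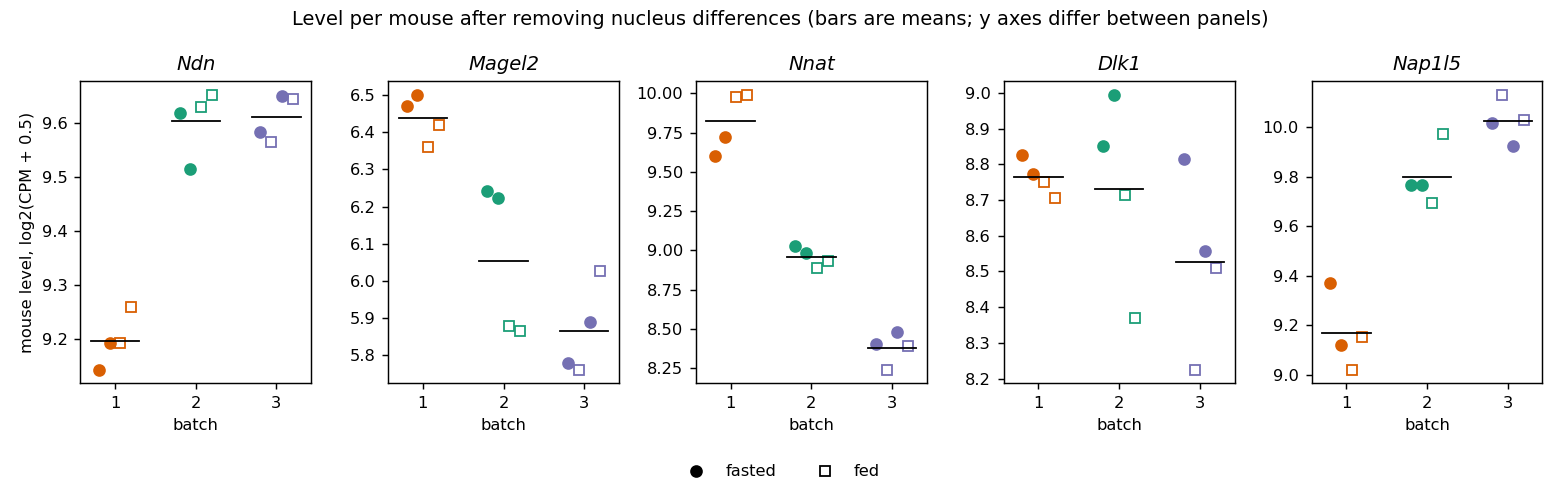
Level per mouse in log2(CPM + 0.5) after nucleus differences were removed, by batch, with fasted mice as filled circles, fed mice as open squares and batch means as bars (y axes differ and do not start at 0). Batch 1 is apart from the other mice for Ndn, Magel2, Nnat and Nap1l5 and lies within their range for Dlk1.

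The differences of Ndn, Magel2, Nnat and Nap1l5 between batch 1 and the others had the same direction in fasted and in fed libraries of every nucleus, in 8 of 8 subsets each. Marker genes moved with batch as well. Of all genes 15.8% were higher and 18.5% lower. Of the measured microglia markers 4 of 7, of 10 listed, were higher in batch 1, with a summed level of 123 to 226 CPM there, 88.9 to 196 in batch 2 and 99.96 to 178 in batch 3. For oligodendrocyte markers 2 of 7 were higher and 0 lower, and for neuron markers 2 of 6 were higher and 2 lower. Of 4 measured astrocyte markers, of 9 listed, 1 was higher and 0 lower, and their summed level averaged 296, 251 and 212 CPM in batches 1, 2 and 3. Of 3 ependymal and tanycyte markers 1 was higher, with means of 27.2, 16.04 and 15.97 CPM. Endothelial markers had 2 of 7 higher and 0 lower. Markers of the nuclei themselves also differed, with the 2 measured PVN markers summing in PVN to 1444, 797 and 574 CPM on average in batches 1, 2 and 3, and batch 1 (1289 to 1600 CPM) above the rest. The means were 683, 418 and 400.5 CPM for 3 DMH markers in DMH and 1033, 599.9 and 518 for 2 ARC markers in ARC, with overlapping ranges, and 321, 347 and 388 for 4 VMH markers in VMH. The libraries of batch 1 also had 350 to 525 genes at 0 (median 392.5) and those of the other batches 95 to 665, with medians of 212 and 199.5. Their CPM over the genes analysed summed to 604723 to 689010, against 554896 to 611613. The part of these values in the batch differences was not tested. Of the nucleosome assembly protein family, with all 10 listed genes measured, 7 were lower in batch 1 and 0 higher, beside 18.5% and 15.8% of all genes, including Nap1l1 (-0.71 ± 0.06), Set (-0.69 ± 0.07) and Nap1l5 itself. The family's median difference was -0.47, beside -0.02 for all genes. Of 6 measured MAGE genes, Ndn, Magee1 (-0.44 ± 0.08) and Magee2 (-0.79 ± 0.14) were lower and Magel2 was higher. Beside Dlk1, Rtl1 (0.78 ± 0.13), Begain (0.67 ± 0.13) and Mirg (0.24 ± 0.11) were higher in batch 1, whereas Rian did not pass (0.00 ± 0.06, adjusted p 0.975).

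The third comparison asked whether the members changed with a fast in each nucleus. Of the 20 tests, 1 passed, a higher Dlk1 in ARC. In that nucleus 0.176% of 9654 genes were called, with 10 higher and 7 lower. In DMH, PVN and VMH no member was called by limma, with 0.0103%, 0.367% and 0.0208% of genes called. At an unadjusted p under 0.05 the members there numbered 0, 2 and 0, with 6.62%, 9.97% and 6.98% of genes at that threshold. In ARC, Dlk1 and Magel2 were under it, with 8.10% of genes.

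Dlk1 in ARC was at 772, 777, 847 and 1083 CPM in the fasted mice (n = 4). In the fed mice it was at 512, 581, 612, 634 and 675 CPM (n = 5). The groups did not overlap, which was so for 2.13% of genes in this nucleus. Dlk1 was 1.43-fold higher in fasted ARC (0.52 ± 0.11, limma adjusted p 0.0867). The within-batch differences were 0.19, 0.48 and 0.71 in batches 1, 2 and 3, all above 0. The call was lost without fasted ARC-100 (adjusted p 0.329), fasted ARC-311 (0.309), fed ARC-125 (0.109), fed ARC-127 (0.203), fed ARC-308 (0.447) or fed ARC-313 (0.2), where a library is named by nucleus and mouse number. It was also lost at a pseudocount of 0.1 (0.128), with no filter (0.131), after centring on the median (0.125), without the batch term (0.475) and in the fit over all libraries with a mouse block (0.5). The change stayed between 0.40 and 0.54 in these fits. The summed endothelial markers were lower in fasted ARC, at 63.9 to 100.7 CPM against 108 to 134 CPM in fed, although 0 of 7 of them were called. The summed microglia markers were at 111.1 to 162 CPM fasted and 131 to 226 CPM fed, which overlap, with 0 of 7 called. Npy, the appetite-stimulating peptide gene, was higher by 1.35 ± 0.16 in the same libraries. The part of these markers in the Dlk1 change was not tested.

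Dlk1 did not pass the test of fasting in the other nuclei. In PVN the fasted libraries were at 572, 701, 713, 766 and 1061 CPM and the fed at 476, 503, 535, 584 and 1081 CPM, which overlap (0.30 ± 0.09, adjusted p 0.253). In VMH they were at 64.4 to 163 CPM (median 116) fasted and 69.7 to 181 CPM fed (0.23 ± 0.20, adjusted p 0.898), and with single libraries left out the change ranged from 0.10 to 0.41. In DMH the change was 0.07 ± 0.14, with -0.59 within batch 1, and it was below 0 without fasted DMH-100, fed DMH-127 or fed DMH-308. Over the 4 nuclei the mean change was 0.29 ± 0.10 (adjusted p 0.123, with 3.18% of genes called). This mean passed without batch 1 (0.36, adjusted p 0.0337) and without mouse VMH-86 (0.0605), mouse VMH-111 (0.064) or mouse VMH-125 (0.0579). In the other direction, its adjusted p was 0.358 without mouse VMH-308 and reached 0.65 over the other settings. The fasting change of Dlk1 was not shown to differ between nuclei (F-test, adjusted p 0.984), a test that called 0 genes and had 517 at an unadjusted p under 0.05.

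Nnat in PVN was at 527, 664, 730, 829 and 1350 CPM fasted. The fed libraries were at 390, 417, 482, 628 and 1548 CPM, and the highest of each state was the batch 1 library. The change was 0.38 ± 0.12 (adjusted p 0.253), with -0.20 in batch 1 and 0.50 and 0.55 in batches 2 and 3. Without batch 1 it was 0.52 and passed (adjusted p 0.0617), as it did without fasted PVN-86 (0.0624) or fed PVN-111 (0.0521). In ARC, DMH and VMH the Nnat changes were -0.22 ± 0.12, -0.05 ± 0.10 and -0.06 ± 0.11. The test of a difference between nuclei gave an unadjusted p of 0.0234 for Nnat (limma F-test, adjusted p 0.902).

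Magel2 in ARC was at 72.2, 95.8, 122 and 178 CPM fasted and at 52.2, 63.4, 69.5, 83.4 and 108 CPM fed. The ranges overlapped and the change did not pass (0.56 ± 0.19, adjusted p 0.435), with values of 0.72, 1.08 and 0.13 within batches 1, 2 and 3. It was 0.32 without fasted ARC-100. In the other nuclei the Magel2 changes lay between -0.08 and 0.12.

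No fasting change of Ndn or Nap1l5 passed the test. Ndn changes ran from -0.14 ± 0.09 in PVN to 0.10 ± 0.08 in ARC, and those of Nap1l5 from -0.18 ± 0.09 in PVN to 0.09 ± 0.09 in DMH. Within batches, the 12 Ndn values were above 0 in 6 subsets and below in 6, and Nap1l5 was below 0 in 9 of 12.

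**Figure D4:**
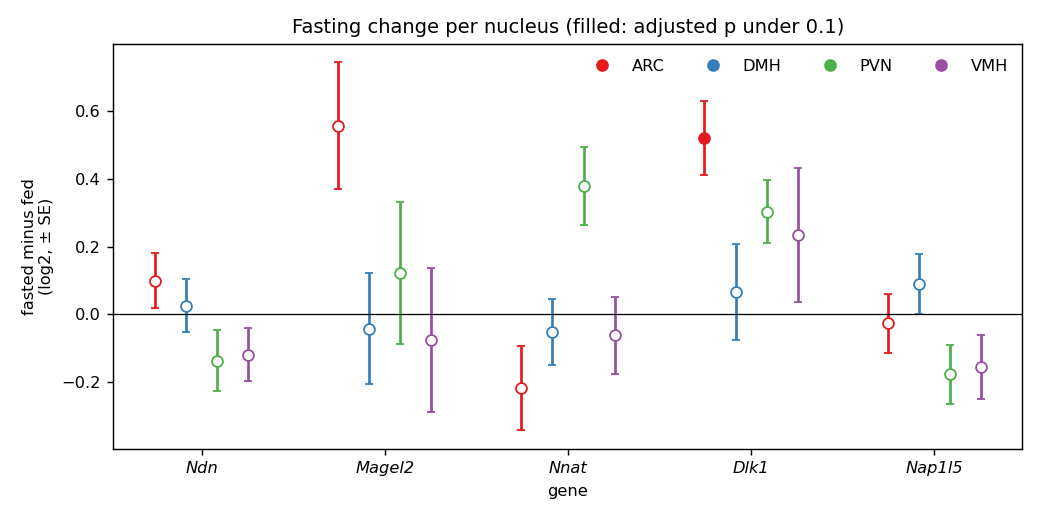
Fasted minus fed difference in log2(CPM + 0.5) per nucleus (points, with bars of ± 1 SE) for the 5 genes, with batch as a covariate. The Dlk1 point in ARC, at 0.52, is the filled one, with an adjusted p of 0.0867.

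Among the other imprinted genes, 33 of 34 were tested for fasting in each nucleus. Asb4 was lower in fasted ARC (-0.61 ± 0.13, adjusted p 0.0867), where Dlk1 was higher. That Dlk1 call was lost in the fit over all libraries with a mouse block (limma adjusted p 0.5). The Asb4 call had the same adjusted p as that of Dlk1, and its values in the alternative fits are not given here. Peg10 was lower in fasted PVN (-0.50 ± 0.11, limma adjusted p 0.0665) and over the 4 nuclei (-0.31 ± 0.05, adjusted p 0.000369). The fit over nuclei counted libraries of 1 mouse almost as separate (mouse correlation -0.003). Its p value for Peg10 thus does not measure the spread between mice alone. Of all genes, 0.176% were called in ARC, 0.367% in PVN and 3.18% over nuclei. The other measured genes of the Dlk1 domain, Rtl1, Rian, Mirg and Begain, were not called in any nucleus, with ARC changes of 0.03, -0.05, 0.26 and 0.30.

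Genes with the most similar pattern over the 41 libraries were ranked by Pearson r among 7639 genes with a mean of at least 5 CPM. Libraries of 1 mouse or batch are not independent, so these values only describe. For Dlk1 they were Th (r = 0.93), which encodes the rate-limiting enzyme of dopamine synthesis, Lrrc58 (0.91) and Dgkk (0.90). For Nap1l5 they were Rcn2 (0.88), Tmx4 (0.87) and Dzip3 (0.87). For Nnat they were Cbarp (0.85), the translation elongation factor gene Eef2 (0.85) and Hist1h1e (0.84). For Ndn they were Stag1 (0.80), Usp34 (0.79) and Msantd4 (0.78), and for Magel2 Nespas (0.66), the hypothalamic homeobox gene Bsx (0.64) and Ptpn23 (0.64). No member was among the 3 nearest of another, and the highest r between members was 0.78, for Ndn and Nap1l5.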

How the data were processed

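RNA of laser-captured nuclei was amplified, made into libraries and sequenced by the authors. The submitters' notes name CASAVA 1.7, TopHat2 2.0.11, Cufflinks 2.2.1, edgeR, limma and the build GRCm38; the program that counted reads is not given in the sources used here. The authors deposited CPM per Ensembl gene. Identifiers of 6725 annotated genes in 1 range were not analysed here, so CPM summed to 554896 to 689010 per library. Of 43 columns, 2 that fit no sample's labels were left out, and 2 samples, both labelled PVN of batch 1, were not analysed here. The names of these columns give ARC for the same mice, and which is right was not tested here. Depth was read from the steps of low values, of which 97.7% to 98.7% were whole within 0.1 of a read. Since other values were fractions of a read, no count model was used.

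Names and positions came from GENCODE M21, promoters from RefSeq. Genes reaching 1 CPM in at least the number of libraries of the smaller group compared were tested on log2(CPM + 0.5), which understates changes of low genes, with limma 3.58.1 in R 4.3.3 (eBayes with a trend, 2-sided, Benjamini-Hochberg over all tested genes, threshold 0.1). Nuclei were compared with mouse as a fixed block, since nuclei of the same number came from the same mouse. Batches, the mean fasting change and its difference between nuclei used 8 group means, batch and mouse as a random block (correlation -0.003). Fasting per nucleus used that nucleus alone with batch. Mouse levels came from a fit on nucleus and mouse. The scripts were tested on simulated data. Alternatives were pseudocounts of 0.1 and 2, no filter and 5 CPM, TMM (a trimmed mean of ratios between libraries) or median scaling, batch 1 left out, other blocks and each mouse or library left out. Values were described for the members, gene lists, marker lists and, for each member, the 3 genes most like it. Members, lists and tests were chosen with earlier results of these data known.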

Additional observations from a re-analysis of the deposited data

Results flagged for a closer look

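In 40 groups of a gene, nucleus and feeding state, a library far from the rest of its group was sought, and 8 were found. The rule flags about 1 in 20 groups where groups are separate and uniform. Here the groups share libraries between genes and mix batches, so that rate does not measure how unusual 8 are. Of these 8, 7 were libraries of batch 1. Each group holds 1 or 2 libraries of batch 1, and the part of batch was not tested here. Ndn was at 599 CPM in fasted ARC-86, with the others of its group at 948 to 1011 CPM, and at 615 CPM in fasted PVN-86, with the others at 722 to 762 CPM. Fed PVN-111 was far above its group for 3 genes, at 91.8 CPM for Magel2 (others 38.3 to 51.4), 1548 CPM for Nnat (others 390 to 628) and 1081 CPM for Dlk1 (others 476 to 584). Nnat was also far above in fed ARC-111, at 1185 CPM (others 346 to 545), and in fasted DMH-86, at 924 CPM (others 336 to 505). The exception was Dlk1 in fed VMH-125 of batch 2, at 181 CPM with the others at 69.7 to 90.8 CPM.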

How the results depend on the processing

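Of 95 differences of single genes, 51 were called, and all 51 kept their direction under every alternative run. Of these, 47 stayed called under every other setting and 43 without any single mouse or library. Of the 44 that were not called, 5 passed under some alternative and 17 changed sign under some. The cause was not tested.

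The number of members called for fasting in ARC, 1, was 0 with a pseudocount of 0.1, no filter, median centring, no batch covariate and the fit over all libraries with replicate block, and 0 to 1 with single libraries left out. In PVN and over nuclei, 0 became 1 without batch 1, and leaving out single libraries or mice gave 0 to 1 in both. For DMH against the other nuclei the count of 2 ranged from 1 to 2. The count of 5 members lower in VMH was 4, without Magel2, at a pseudocount of 0.1, without batch 1 and in 7 of 12 fits that left out a mouse.

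Dlk1 in batch 2 minus batch 1 was 0.0069 with TMM scaling and 0.045 with median centring, against -0.01. Ndn in batch 3 minus batch 2 was 0.0027 with TMM scaling, 0.015 with median centring and 0.0070 in mouse averages. Nnat in DMH against the others was -0.019 with TMM scaling and -0.0032 with median centring. The Nnat fasting change in VMH was 0.070 without batch 1 and 0.063 without the batch covariate, and over nuclei it was -0.0014 with TMM scaling and -0.034 in mouse averages.

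With a mouse or library left out, values that crossed 0 ranged as follows. For Dlk1 the range was -0.11 to 0.086 in batch 2 minus batch 1 and -0.039 to 0.29 for fasting in DMH. For Magel2 the fasting change ranged in VMH from -0.26 to 0.083, in PVN from -0.0037 to 0.32 and in DMH from -0.14 to 0.027. For Nap1l5 in ARC it ranged from -0.074 to 0.029. Ndn ranged from -0.060 to 0.016 for DMH minus PVN, -0.029 to 0.0066 for DMH and -0.015 to 0.061 for PVN against the others, -0.022 to 0.022 for batch 3 minus batch 2 and -6.7e-06 to 0.058 for fasting in DMH. Nnat ranged from -0.13 to 0.032 for ARC minus DMH, -0.12 to 0.0031 for ARC and -0.040 to 0.061 for DMH against the others, and for fasting -0.10 to 0.010 in DMH, -0.16 to 0.070 in VMH and -0.025 to 0.084 over nuclei.

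Without the replicate block, Magel2 in DMH minus VMH passed (0.36, adjusted p 0.0727), and no other call of a single member changed. Scaling moved the median of all genes by under 0.1. Depth and the number of mice limit small changes, most for Magel2. With a mouse correlation of -0.003, the batch and mean fasting fits counted libraries of 1 mouse almost as separate. Their p values thus do not measure the spread between mice alone. Over the other settings, the adjusted p of the Nap1l5 batch F-test (limma) reached 5.5e-06, against 8.49e-15.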
